A study of Mus musculus with 12 samples.

Results

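The genes described here are 33 genes of glucose uptake, glycolysis, lactate handling, pyruvate dehydrogenase control and the pentose phosphate pathway. They were taken by symbol from a list of enzymes and transporters, drawn up with earlier results of these data known, and all 33 were found among the 56691 entries of the deposited count table. All 33 passed the filter on low counts, which left 14394 genes for testing. The libraries came from MC3T3-E1, a wild-type mouse pre-osteoblast line of calvarial origin. All groups grew for 28 days in osteogenic medium, which held ascorbic acid at 50 µg/ml, dexamethasone at 0.1 µM and, as the source of phosphate, beta-glycerophosphate (BGP) at 10 mM. For the last 24 h they received nothing further (control), 25-hydroxyvitamin D (25(OH)D), from which cells make the active vitamin D hormone, at a labelled 100 µM, the same with a further 4 mM BGP, or the same with 100 µM ZK191784, a compound the labels give by its code name. Both 100 µM doses are printed as labelled, and their unit could not be checked and may be an error. Each of the 4 groups had 3 libraries of 3′ mRNA-seq, with total counts between 3318723 and 5170980. The labels name no separate cultures, so each p-value reflects the spread from library to library, which may be technical. No group received ZK191784 or the further BGP without 25(OH)D.

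Glycolysis breaks glucose down to pyruvate, which lactate dehydrogenase can turn into lactate or the pyruvate dehydrogenase complex can pass to the mitochondria. The pentose phosphate pathway branches off at glucose 6-phosphate; its oxidative arm makes NADPH and its non-oxidative arm exchanges sugars between ribose and glycolysis. Osteoblasts are known for a high rate of glycolysis with lactate release. Lactate dehydrogenase A is a well-known target of the hypoxia-inducible factor (HIF), whose core DNA motif is ACGTG or GCGTG. The form GCGTG was not searched for here.

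Of the 33 genes, 2 differed between 25(OH)D and control. Pgd, which encodes 6-phosphogluconate dehydrogenase of the oxidative pentose phosphate arm, rose 5.95-fold, and Ldha, which encodes the A subunit of lactate dehydrogenase, fell by 1.16 on the log2 scale. The other 31 did not pass the test. With ZK191784 added, Pgd stood close to its control level and Ldha stayed low. The further BGP changed neither gene detectably. Called here means an adjusted p (Benjamini-Hochberg over all 14394 genes) under 0.05 by edgeR's quasi-likelihood test. Among all genes tested 8.68% were called in this comparison, 4.76% higher and 3.93% lower, so that 1 higher and 1 lower among 33 genes is not more than the background.

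The sequences before the starts of these 2 genes are shown because the results turn on them. Each is the 250 bases before the first start listed for the gene by RefSeq (build GRCm38.p6, a different build from the mm39 of the counts), 5′ to 3′ on the gene's strand, with matches to ACGTG on either strand in capitals. By the GENCODE M21 annotation 66 bases of the Pgd window lie in annotated exons of Pgd, and 0 of the Ldha window do. Pgd lies on the minus strand at chr4:149166706-149166955 and Ldha on the plus strand at chr7:46845554-46845803.
Pgd: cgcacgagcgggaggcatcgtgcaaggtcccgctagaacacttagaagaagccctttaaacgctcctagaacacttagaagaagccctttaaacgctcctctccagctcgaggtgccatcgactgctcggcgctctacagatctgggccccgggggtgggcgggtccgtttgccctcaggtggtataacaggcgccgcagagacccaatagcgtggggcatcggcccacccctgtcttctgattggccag
Ldha: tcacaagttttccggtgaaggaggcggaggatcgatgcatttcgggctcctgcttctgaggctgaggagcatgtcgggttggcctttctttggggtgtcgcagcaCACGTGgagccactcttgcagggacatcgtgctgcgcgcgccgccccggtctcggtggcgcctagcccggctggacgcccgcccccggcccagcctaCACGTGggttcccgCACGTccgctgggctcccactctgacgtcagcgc
The Ldha window held 3 ACGTG sites, which began 145, 48 and 34 bases before the start, counting overlapping matches on both strands as 1 site. The window before the second start listed for Ldha, not printed here, held 0 ACGTG sites. The Pgd window held 0 ACGTG sites, though its printed sequence contains gcgtg, the form not searched for. Over the first listed start of each of 27025 genes, 16.6% of windows held the motif. Among the 32 of the 33 genes with a RefSeq window it was in 10, namely Hk2, Ldha, Pdk2, Pfkfb3, Pfkm, Pgam1, Pgk1, Slc16a1, Slc16a3 and Slc2a1; Slc2a3 had no window. TGACNNNGC, a core of the antioxidant response element, was in 2 of the 32 (G6pdx and Slc16a1) against 10.2% of all windows. The nuclear receptor half-sites AGGTCA and GGTTCA, both strands, were in 2 (Eno1 and Ldhb) and 3 (Eno2, Gpi1 and Tpi1) of the 32, against 13.8% and 8.87% of all windows. Neither window printed held any of these 3. A match describes letters in a window and is no evidence of binding.

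Pgd catalyses the step that releases ribulose 5-phosphate and makes NADPH. Its level, as TMM-scaled CPM (counts per 1000000), was 97.1, 78.0 and 74.0 in the control libraries and 512, 552 and 419 with 25(OH)D. It was 388, 511 and 550 with 25(OH)D and BGP, and 106, 105 and 112 with 25(OH)D and ZK191784. All 6 libraries with 25(OH)D alone or with BGP lay far above the control libraries, and the 3 with ZK191784 lay in a narrow band just above control. The rise with 25(OH)D, from 83.0 ± 12.4 to 494 ± 68.4 CPM (mean ± SD, n = 3), was 2.57 ± 0.18 (SE) on the log2 scale (edgeR adjusted p = 1.73e-06). With ZK191784 added Pgd fell by 2.20 (SE 0.17) from its level with 25(OH)D alone, to 107 ± 3.60 CPM (edgeR adjusted p = 2.01e-05). The log2 difference that remained from control was 0.37 ± 0.17, and it did not pass the test (edgeR adjusted p = 0.731), though the groups did not overlap. The groups of 5.91% of all genes lay apart in this direction.

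Ldha encodes the main subunit of the lactate dehydrogenase that reduces pyruvate. Its level was 681, 671 and 781 CPM in control and 332, 322 and 299.5 in the 25(OH)D group. The BGP libraries had 328, 385 and 378 CPM, and the ZK191784 libraries 426, 365 and 393. Every treated library was below every control library, and the 3 libraries with ZK191784 were above the 3 with 25(OH)D alone. The fall with 25(OH)D, from 711 ± 61.1 to 318 ± 16.7 CPM, was 1.16 on the log2 scale, written as a log2 fold change of −1.16 ± 0.13 (SE, edgeR adjusted p = 7.59e-05). With ZK191784 the level was 395 ± 30.3 CPM. Its log2 difference from 25(OH)D alone was 0.31 ± 0.13, which did not pass over all genes (edgeR unadjusted p of 0.0273, adjusted p = 0.311). Against control the combination was still lower by the test, with a log2 fold change of −0.85 ± 0.13 (edgeR adjusted p = 0.00711). That call was lost without ZK191784 library 2 (adjusted p = 0.0725) and when only the 6 libraries compared were modelled (adjusted p = 0.0839).

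**Figure D1:**
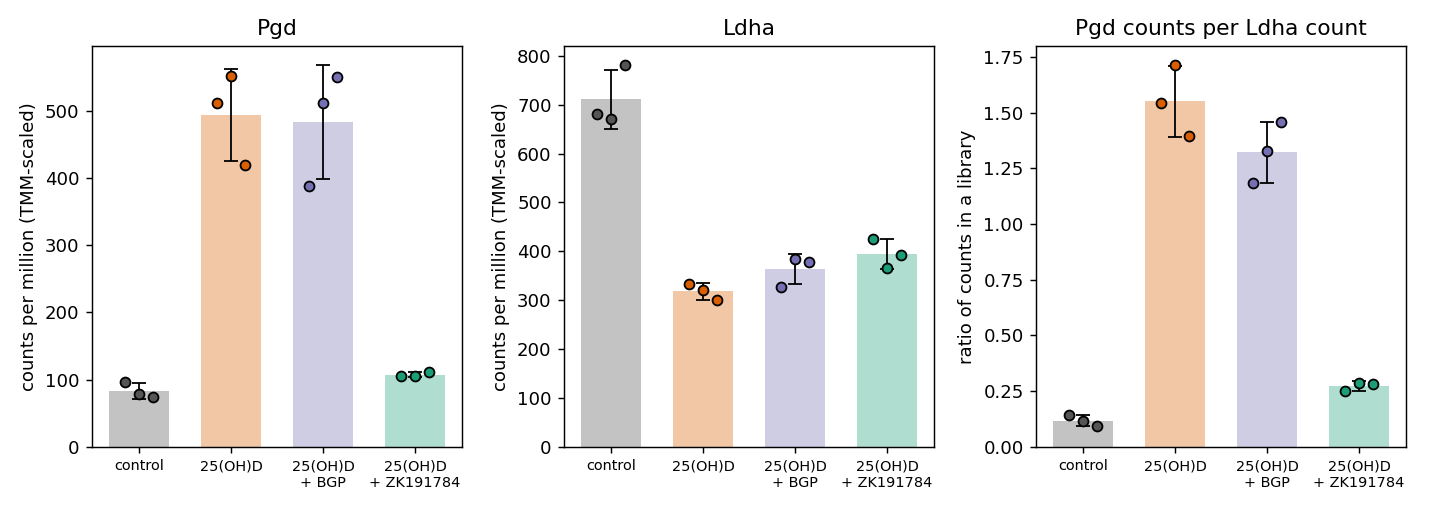
Levels of Pgd and Ldha in TMM-scaled CPM and the ratio of their counts, by group; points are the 3 libraries in order of replicate number, bars their mean and whiskers the SD. Pgd stood at 494 CPM with 25(OH)D against 83.0 in control and 107 with ZK191784 added, while Ldha stood at 711 CPM in control and between 318 and 395 in the 3 treated groups.

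The 2 genes moved in opposite directions, so their ratio within a library, which does not depend on the scaling between libraries, separated the groups. The pair was chosen with its values known, and the ratio is a description with no test. It compares libraries and not the amounts of the transcripts of the 2 genes. Pgd had 0.143, 0.116 and 0.0947 counts per Ldha count in the control libraries against 1.54, 1.71 and 1.40 in the 25(OH)D group. The BGP libraries had 1.18, 1.33 and 1.46, and the ZK191784 libraries 0.248, 0.287 and 0.284. The log2 ratio had a mean of −3.10 ± 0.29 (SD, n = 3) in control and 0.63 ± 0.15 under 25(OH)D. In the BGP group it was 0.40 ± 0.15, and in the ZK191784 group −1.87 ± 0.12. The libraries with 25(OH)D alone and with BGP overlapped. Those with ZK191784 lay between control and the other treated groups and overlapped with neither: their mean ratio was 2.34-fold above control, and the mean with 25(OH)D alone was 13.3-fold above control. The comparisons share the control or the 25(OH)D libraries and are not independent of each other.

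None of the other genes passed the test with 25(OH)D. Some, such as Aldoc (−1.08 ± 0.59) and Pdk4 (1.07 ± 0.36), lay nearly as far from 0 as Ldha, with wider errors. The log2 fold changes of the 33 genes with 25(OH)D had a median of −0.33, with 22 below 0. Over all 14394 genes tested the median was −0.05, with 7716 below 0. The groups did not overlap for 2 genes that were higher (Pgd and Pdk4) and 6 that were lower (Ldha, Hk2, Pfkm, Pfkp, Pfkfb3 and Pdha1). Among all genes the groups lay apart for 21.9%, with 11.1% higher and 10.8% lower. Besides Pgd and Ldha, 7 of the 33 had an unadjusted p under 0.05 and did not pass after adjustment. With Pgd and Ldha these make 27.3% of the 33, beside 19.6% of all genes.

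**Figure D2:**
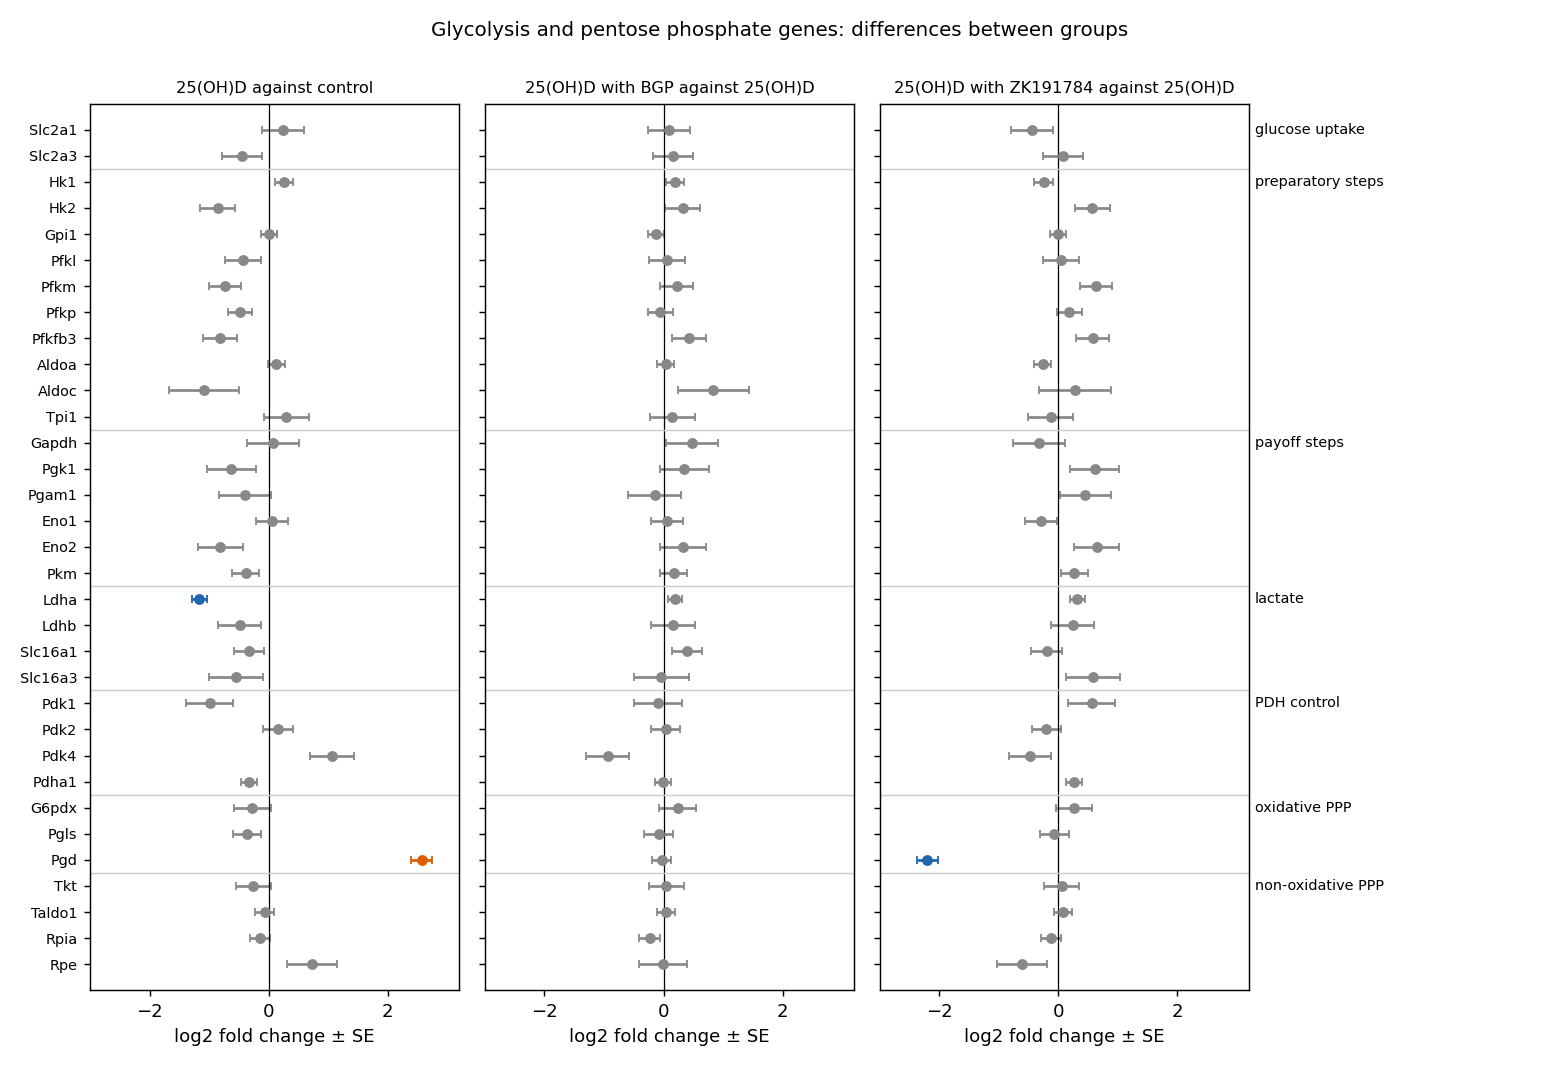
Log2 fold changes with SE of the 33 genes, grouped by role, in 3 comparisons (PPP, pentose phosphate pathway; PDH, pyruvate dehydrogenase); orange marks genes called higher, blue genes called lower and grey genes not called, at an adjusted p under 0.05 by edgeR. Pgd at 2.57 and Ldha at −1.16 are the coloured genes of the first panel, no gene is coloured in the second, and Pgd at −2.20 is the 1 coloured gene of the third.

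Glucose enters through the transporters of Slc2a1 (GLUT1) and Slc2a3 (GLUT3), and neither was called. Slc2a1 was 9.83, 11.6 and 12.8 CPM in control and 19.8, 9.40 and 11.6 with 25(OH)D, a log2 difference of 0.25 ± 0.35 with overlapping groups. Slc2a3 was 66.2, 45.9 and 35.4 CPM in control and 30.2, 30.1 and 48.3 with 25(OH)D (−0.44 ± 0.33), again with overlap.

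None of the 10 genes of the preparatory steps was called. Hk2, an inducible hexokinase, had 48.0, 44.5 and 31.9 CPM in control and 19.3, 17.8 and 31.7 with 25(OH)D. Its highest 25(OH)D library was level with its lowest control library, and its log2 difference of −0.85 ± 0.29 had an adjusted p of 0.104 by edgeR. It passed without 25(OH)D library 3, at a log2 fold change of −1.16. Hk1, the hexokinase of most tissues, differed by 0.26 ± 0.16. Pfkfb3, whose product makes the activator fructose 2,6-bisphosphate, had 23.7, 20.7 and 26.4 CPM in control against 14.2, 8.92 and 17.2 (−0.82 ± 0.28, edgeR adjusted p = 0.108). Of the phosphofructokinase genes, Pfkm had 13.2, 11.4 and 16.4 CPM against 10.4, 6.03 and 8.19 (−0.73 ± 0.27), Pfkp differed by −0.48 ± 0.21 and Pfkl by −0.43 ± 0.30. The groups lay apart for Pfkm and Pfkp and overlapped for Pfkl, and none of the 3 passed the test. The aldolase gene Aldoa differed by 0.13 ± 0.15 and the isomerase gene Gpi1 by 0.01 ± 0.14, both with a small error. Aldoc (−1.08 ± 0.59) and the triosephosphate isomerase gene Tpi1 (0.30 ± 0.38) had wide errors.

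The 6 genes of the payoff steps were not called either. Pkm, which encodes pyruvate kinase of muscle and proliferating cells, had 178, 133 and 113 CPM in control and 86.9, 98.4 and 140.0 with 25(OH)D (−0.38 ± 0.23), with overlap. Pgk1, which encodes the first ATP-making enzyme of the pathway, differed by −0.62 ± 0.41 and the enolase gene Eno2 by −0.81 ± 0.38. The other enolase gene, Eno1, differed by 0.05 ± 0.27, the mutase gene Pgam1 by −0.40 ± 0.44 and the dehydrogenase gene Gapdh by 0.07 ± 0.44. Gapdh was low in this table, from 7.66 to 27.0 CPM over the 12 libraries, with the highest values in BGP library 2 and 25(OH)D library 1.

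Several of these genes have near-identical processed copies, to which reads could be split, and their levels are uncertain. Entries named as copies held more counts than the gene itself for Pgam1 (586 against 142) and Ldhb (2172 against 1270). They held 562 counts against 658 for Gapdh, 515 against 604 for Eno1 and 1210 against 1548 for Tpi1. Adding the copies to their genes left the number called at 2 with 25(OH)D. It could add back only reads assigned to the named copies, and any left uncounted for mapping to several places stayed lost, so it does not settle the levels. Ldha had 23344 counts and its named copies 415, or 1.75% of the sum, and no entry was named as a copy of Pgd. Aldoa had a second entry with 3 counts in all, which was kept apart.

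Besides Ldha, the lactate genes were not called. Ldhb, the subunit that favours lactate oxidation, was 39.6, 27.6 and 21.2 CPM in control and 13.6, 17.1 and 32.2 with 25(OH)D (−0.49 ± 0.37). The lactate transporter genes Slc16a1 (MCT1) and Slc16a3 (MCT4) differed by −0.33 ± 0.26 and −0.54 ± 0.45. All 4 lactate genes were lower in the mean, and the groups lay apart for Ldha alone among them.

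Pyruvate dehydrogenase kinases switch the complex off by phosphorylating the subunit encoded by Pdha1. Pdk4 was 5.76, 3.79 and 2.14 CPM in control and 8.29, 6.51 and 9.77 with 25(OH)D (1.07 ± 0.36, edgeR adjusted p = 0.105), and it passed without control library 1 (1.44). Pdk1, a HIF target, differed the other way, with 9.11, 5.06 and 14.0 CPM against 5.62, 5.06 and 3.43 (−0.99 ± 0.39, edgeR adjusted p = 0.171). Pdk2 differed by 0.16 ± 0.25. Pdha1 itself had 327, 359.8 and 289 CPM in control and 233, 289 and 253 with 25(OH)D (−0.33 ± 0.13, edgeR adjusted p = 0.184). In the mean the 2 kinases Pdk4 and Pdk1 thus stood on opposite sides of control, and neither passed. The Pdk1 groups overlapped.

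In the pentose phosphate pathway Pgd was the 1 gene of 7 called. G6pdx, which encodes the rate-limiting glucose-6-phosphate dehydrogenase just before it, was 39.1, 29.5 and 20.0 CPM in control against 19.0, 19.0 and 35.4 in the 25(OH)D group. Adding BGP gave 29.5, 27.6 and 29.5, and adding ZK191784 gave 21.1, 29.9 and 37.2, with all groups overlapping. Its log2 difference with 25(OH)D was −0.27 ± 0.31 and the approximate 95% interval ran from −0.98 to 0.44, which does not reach the rise of Pgd. Pgls, which encodes the lactonase between these enzymes, differed by −0.36 ± 0.24. In the non-oxidative arm the transketolase gene Tkt differed by −0.26 ± 0.29, the transaldolase gene Taldo1 by −0.07 ± 0.15 and the ribose-5-phosphate isomerase gene Rpia by −0.14 ± 0.17. Rpe, the epimerase gene, had 8.87, 6.74 and 10.5 CPM in control and 18.7, 17.4 and 7.13 with 25(OH)D (0.73 ± 0.42), with 25(OH)D library 3 inside the control range.

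Libraries of the same group differed in composition, and several of these genes differed with it. The measure used is the log2 ratio of ribosomal protein counts to those of pseudogenes and Gm-numbered genes, called the library ratio here. Its control values ran from −1.86 to −0.66, and those of the 25(OH)D group from −1.83 to −0.53. It ran from −1.74 to −0.52 in the BGP group and from −1.66 to −0.87 in the ZK191784 group. The highest ratios were those of control library 3, 25(OH)D library 1 and BGP library 2. Tkt was 103 CPM in that control library against 202 and 199, 102 against 123 and 195 in the 25(OH)D group, and 109 against 185 and 140.4 in the BGP group. With this ratio as a covariate, 8 of the 33 genes were called with 25(OH)D, 2 higher and 6 lower, or 24.2%, beside 2856 of all genes, or 19.8%. Besides Pgd (2.55 ± 0.13) and Ldha (−1.20 ± 0.10) these were Pdk4 (1.20 ± 0.35, adjusted p = 0.0109), Hk2 (−0.74 ± 0.17, adjusted p = 0.00158), Pfkfb3 (−0.78 ± 0.23, adjusted p = 0.0111), Pdk1 (−1.09 ± 0.33, adjusted p = 0.0150), Pfkm (−0.76 ± 0.26, adjusted p = 0.0335) and Pdha1 (−0.31 ± 0.11, adjusted p = 0.0391), all by edgeR. The fold changes of Pgd and Ldha moved little, and with those 3 libraries left out together the genes called were again Pgd and Ldha.

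**Figure D3:**
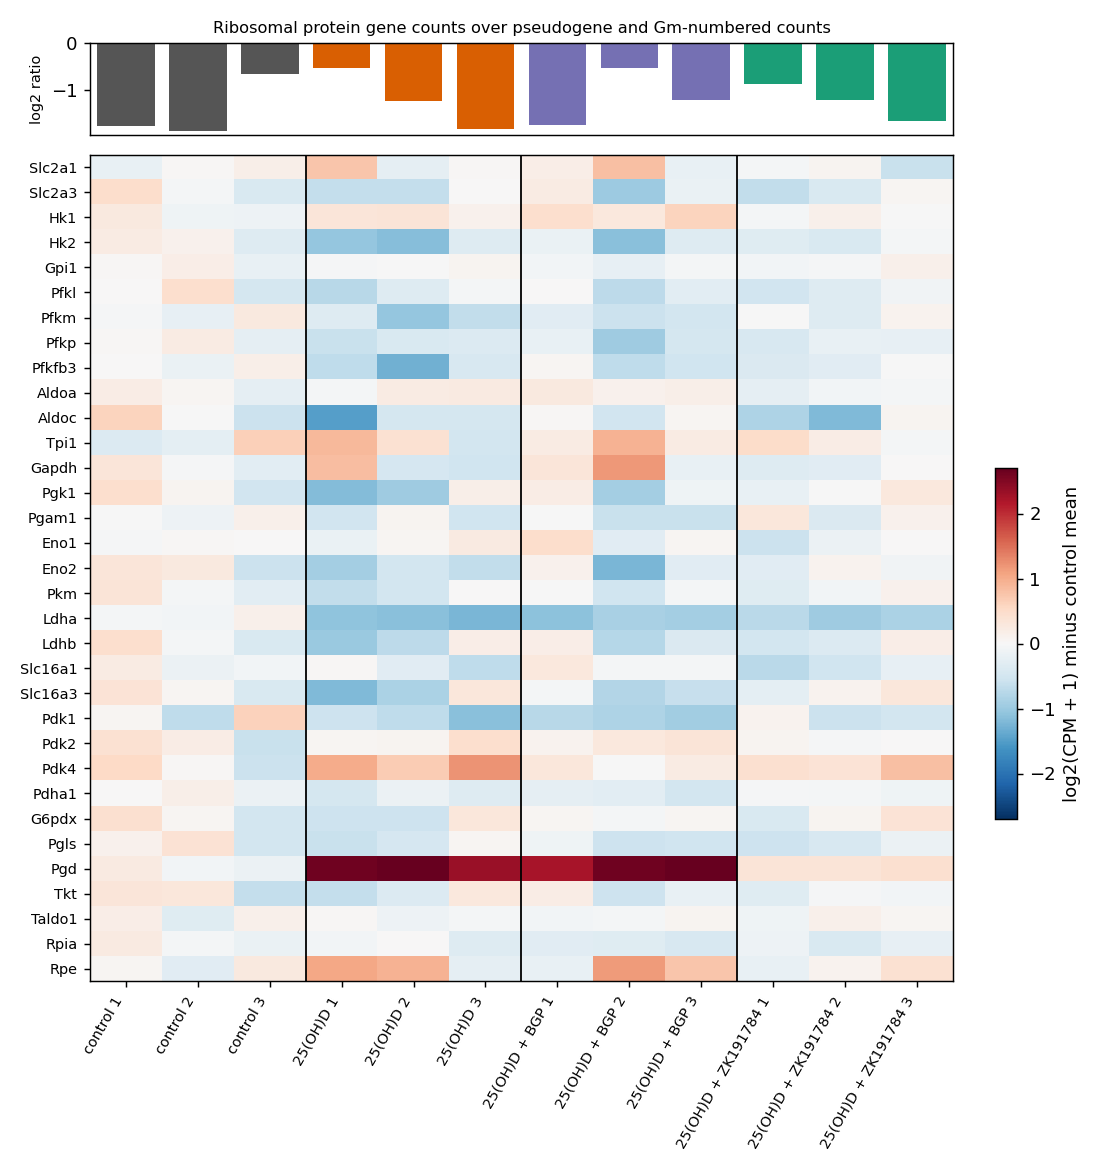
Each row is 1 of the 33 genes and each column 1 library, with colour giving log2(CPM + 1) minus the mean of the 3 control libraries; the bars above give the library ratio on a log2 scale. Pgd is high in all 6 libraries with 25(OH)D alone or with BGP, Ldha is low in all 9 treated libraries, and genes such as Tkt, Pgk1 and Ldhb differ between libraries of 1 group.

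The 33 genes together took 0.256 ± 0.0328% of the counts in control (SD, n = 3) and 0.230 ± 0.0235% under 25(OH)D. The share was 0.245 ± 0.0228% in the BGP group and 0.211 ± 0.0193% in the ZK191784 group. Without Pgd and Ldha the other 31 took 0.177 ± 0.0338%, 0.151 ± 0.0260%, 0.161 ± 0.0265% and 0.161 ± 0.0181% in the same order. The ranges of the libraries overlapped between all groups, for the 33 genes and for the 31. These shares hold only the reads assigned to the 33 entries. The levels of genes with near-identical copies, such as Gapdh, Eno1, Tpi1 and Pgam1, are uncertain, so the shares may not give the pathway's part of the mRNA.

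Adding 4 mM BGP to 25(OH)D was the next comparison. None of the 33 genes was called, and 1 had an unadjusted p under 0.05 by edgeR. DESeq2 also called 0. Over all genes 0% were called by edgeR, with 268 genes at an unadjusted p under 0.05, and DESeq2 called 0. The interval of the log2 difference, approximate at 95%, ran from −0.41 to 0.35 for Pgd and from −0.10 to 0.48 for Ldha, so smaller differences were not detectable with these libraries. The 1 gene was Pdk4, at 4.77, 3.64 and 4.44 CPM with BGP against 8.29, 6.51 and 9.77 without. The groups lay apart, and the log2 difference of −0.93 ± 0.36 had an unadjusted p of 0.0235 and an adjusted p of 1.000 by edgeR. With BGP Pdk4 overlapped with control. The groups also lay apart for Gpi1, which was lower with BGP (−0.13 ± 0.14). These 2 genes lower and 0 higher stand beside 3.66% and 2.38% of all genes, or 6.04% in either direction. Set against control, the BGP group gave the same 2 calls as 25(OH)D alone, Pgd higher (2.54 ± 0.18, edgeR adjusted p = 2.42e-06) and Ldha lower (−0.97 ± 0.13, edgeR adjusted p = 0.000320), where 8.25% of all genes were called, 3.9% higher and 4.35% lower. In that comparison the groups did not overlap for 2 genes that were higher (Pgd and Hk1) and 5 that were lower (Ldha, Pfkm, Pdk1, Pdha1 and Rpia). Among all genes this held for 9.73% and 11.2%, or 21% in all.

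Adding ZK191784 to 25(OH)D was the last of the 3 main comparisons. Pgd was the 1 gene of 33 called, lower, where 3.53% of all genes were called, 1.42% higher and 2.11% lower. The groups lay apart for 4 genes that were higher (Ldha, Pfkfb3, Eno2 and Pdha1) and 2 that were lower (Pgd and Aldoa), against 8.57% and 9.02% of all genes, or 17.6% together. The other differences were small or uncertain. Pfkm (0.64 ± 0.27) and Ldha had an unadjusted p under 0.05 and adjusted p = 0.368 and 0.311 by edgeR. Pfkfb3 stood at 17.8, 18.8 and 23.3 CPM, above the 25(OH)D libraries without reaching the test (0.57 ± 0.28, adjusted p = 0.487 by edgeR), and Hk2 at 32.3, 30.4 and 39.1 CPM (0.57 ± 0.29). G6pdx differed by 0.26 ± 0.31 and Rpe by −0.61 ± 0.42. With the library ratio as a covariate 4 were called, or 12.1%, beside 11.4% of all genes in the same fit: Pgd (−2.19 ± 0.13), and, higher, Ldha (0.32 ± 0.10, adjusted p = 0.0274), Hk2 (0.57 ± 0.17, adjusted p = 0.0246) and Pgk1 (0.65 ± 0.21, adjusted p = 0.0433), by edgeR. Against control, the ZK191784 group had 1 call among the 33, that of Ldha, where 0.723% of all genes were called, 0.507% higher and 0.215% lower. The groups lay apart for Pgd (higher) and for Ldha and Slc16a1 (lower), against 5.91% and 5.86% of all genes, or 11.8% together. The difference between the responses of Pgd and Ldha to ZK191784 was not tested.

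Genes of neighbouring metabolism, on lists chosen by function with earlier results of these data known, held 121 tested genes, of which 8 rose and 10 fell with 25(OH)D. These are 14.9% of the 121, beside 8.68% of all genes, and were not tested as a set. Of 18 other glucose transporter and glycolysis genes tested, 1 rose and 2 fell (list median −0.29). Tigar, whose product lowers fructose 2,6-bisphosphate and is known to favour the pentose phosphate pathway, rose from 2.64, 3.16 and 1.90 CPM to 6.69, 8.92 and 9.24 (1.67 ± 0.47, edgeR adjusted p = 0.0435). With ZK191784 it was 4.50, 4.82 and 1.96 CPM, which did not pass against 25(OH)D alone (adjusted p = 0.300). In the BGP group Tigar was not called higher against control. Pfkfb4, a second fructose 2,6-bisphosphate enzyme gene, fell by 1.22 (SE 0.29), and the transporter gene Slc2a10 (GLUT10) fell by 2.18 (SE 0.42).

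Of 11 genes of pyruvate entry into mitochondria, 2 rose and 0 fell (median 0.23). Both encode phosphatases that reverse the action of the pyruvate dehydrogenase kinases. Pdp1 rose from 41.5, 41.5 and 70.2 CPM to 204, 161 and 98.8 (1.60 ± 0.33, edgeR adjusted p = 0.00799), and with ZK191784 it was 165, 122 and 93.7. Pdp2 rose by 1.18 ± 0.25 (edgeR adjusted p = 0.0102). Within the groups Pdp1 was highest in control library 3 and 25(OH)D library 1, which have the highest library ratios of their groups; with the ratio as a covariate its rise was 1.41 ± 0.12.

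Of 13 other pentose phosphate and ribose genes, 0 rose and 1 fell (median 0.18): Prps1, which makes the ribose donor of nucleotide synthesis, fell by 0.68 (SE 0.15). Of 22 genes of NADPH sources and glutathione, 2 rose and 4 fell (median 0.15). The mitochondrial folate enzyme genes Aldh1l2 and Mthfd2 fell by 3.76 (SE 0.43) and 1.49 (SE 0.17), and Idh2, the mitochondrial NADP-dependent isocitrate dehydrogenase, fell by 1.21 (SE 0.22). Hmox1, the haem oxygenase gene, rose from 25.7, 56.3 and 22.1 CPM to 76.2, 124 and 122 (1.63 ± 0.33). The other 2, named after their values were seen, were the malic enzyme gene Me2, which fell by 1.13 (SE 0.27), and Idh1, the cytosolic counterpart of Idh2, which rose by 1.97 ± 0.52. Idh1 was 27.6, 24.2 and 48.5 CPM in control and 212, 127 and 54.4 with 25(OH)D, and it too ran with the library ratio within the groups; with the ratio as a covariate its rise was 1.59 ± 0.16.

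Of 22 genes tested on the list of the HIF pathway and its targets, 3 rose and 1 fell (median −0.01). Vegfa, the vascular growth factor gene, was 15.8, 19.4 and 33.5 CPM in control, 295, 180.3 and 90.1 with 25(OH)D and 87.8, 72.8 and 44.4 with ZK191784. It rose with 25(OH)D by 3.04 ± 0.57 (edgeR adjusted p = 0.00449), and by 2.68 ± 0.16 with the ratio as a covariate. Ddit4, an inhibitor of mTORC1, and Bnip3l, a mitophagy receptor gene, rose by 2.12 ± 0.42 and 0.98 ± 0.21. The gene that fell is Pfkfb4, which is also on the list of glycolysis genes above. Vegfa and Ldha, both known HIF targets, stood on opposite sides of control with 25(OH)D. Hif1a, named outside the rule for the lists, differed by −0.21 ± 0.14 in RNA and was not called. Its protein was not measured, and the part of HIF in these changes was not tested.

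Of 18 genes tested on the tricarboxylic acid cycle list (median 0.12) 1 was called, Mdh1, which was lower (−0.61 ± 0.12). Mdh1 encodes the cytosolic malate dehydrogenase and not the mitochondrial enzyme of the cycle. Of 15 genes of the glycogen, hexosamine and serine branches 2 fell and 0 rose (median −0.04): Psat1 of serine synthesis, by 1.80 (SE 0.18), and the glycogen phosphorylase gene Pygm, by 1.14 (SE 0.31). None of 3 gluconeogenesis genes tested was called (median −0.36). With ZK191784 added to 25(OH)D, 4 of the genes named here were called in the opposite direction: Aldh1l2 (2.07 ± 0.45) and Psat1 (0.95 ± 0.18) higher, and Hmox1 (−1.34 ± 0.32) and Bnip3l (−0.98 ± 0.21) lower, by edgeR. Both comparisons share the 25(OH)D libraries, so the opposite signs are not independent.

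**Figure D4:**
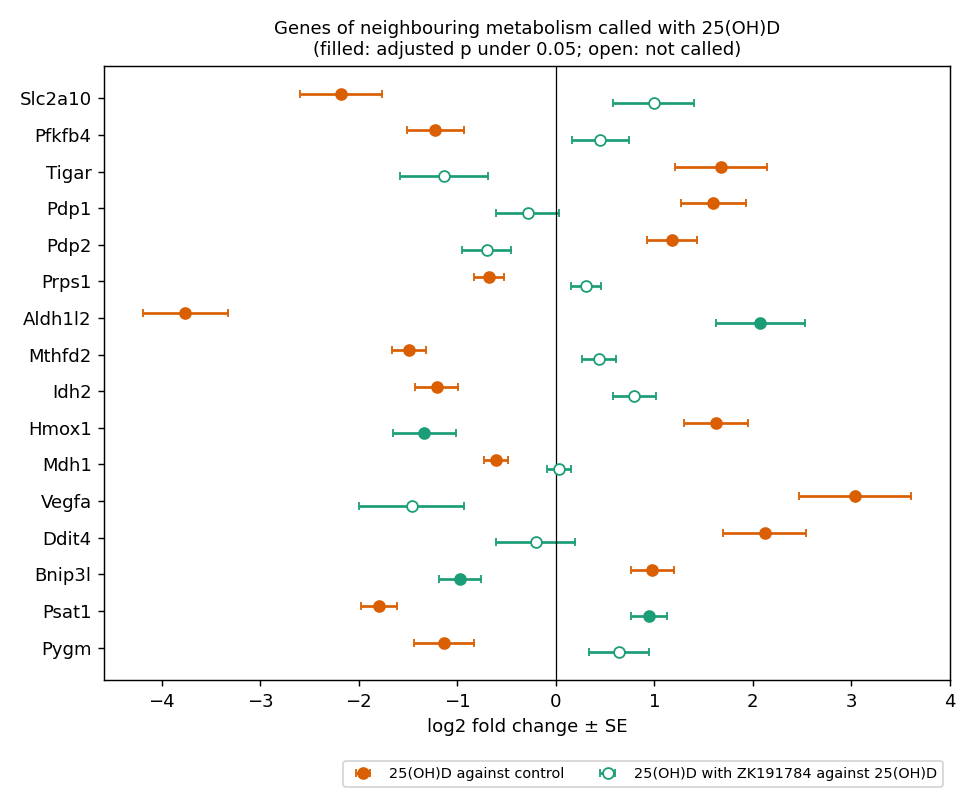
Log2 fold changes with SE of the 16 genes of neighbouring metabolism taken from the lists by the naming rule, in order of their lists, for 25(OH)D against control (orange) and ZK191784 added to 25(OH)D (green); filled points are called and open points are not. Vegfa (3.04) and Aldh1l2 (−3.76) lie farthest out with 25(OH)D.

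Markers of the labelled cell type were present, with 17 of 17 osteoblast and osteocyte markers counted in at least 1 library. The osteocyte markers Mepe, Sost and Fgf23 were at 0 in some libraries and at most 5.27, 3.28 and 1.96 CPM. The 17 markers summed to between 128520 and 143430 CPM in control and between 71592 and 86322 in the treated groups. Of 16 tested, 11 fell and 2 rose with 25(OH)D. Spp1 (osteopontin) rose by 3.92 ± 0.15 on the log2 scale, while Ibsp (bone sialoprotein), Ifitm5 and Col1a1 (type I collagen) fell by 7.20 (SE 0.43), 4.74 (SE 0.25) and 2.17 (SE 0.20). With ZK191784 added, Spp1 fell by 2.22 (SE 0.14) from 25(OH)D alone, and Ibsp, Ifitm5 and Col1a1 rose by 5.65 ± 0.40, 3.53 ± 0.24 and 1.44 ± 0.20, all called by edgeR. Markers of each other cell type summed to far less than these, and some moved with treatment. Not every one was low, as Ptprc (125 to 327 CPM) stood above the osteoblast marker Alpl (22.6 to 54.4 CPM). Adipocyte markers summed to between 8.43 and 9.99 CPM in control, 1.58 and 6.15 under 25(OH)D, 3.37 and 4.50 in the BGP group and 6.99 and 9.21 in the ZK191784 group. The 1 of 7 tested, Fabp4, fell by 2.72 (SE 0.67) with 25(OH)D. Chondrocyte markers summed to between 100.2 and 245 CPM in control, 68.9 and 152 under 25(OH)D, 65.9 and 119.9 in the BGP group and 87.8 and 183 in the ZK191784 group. Of the 2 tested, Col2a1 fell by 4.68 (SE 0.55) with 25(OH)D and rose by 4.02 ± 0.55 when ZK191784 was added. Pgd and Ldha changed in the same comparison as these markers. Skeletal muscle markers summed to 28.9 to 93.0 CPM, with Myog at 0 and none of 2 tested called. Macrophage and osteoclast markers summed to 259 to 446 CPM, of which Ptprc made 125 to 327 and Ctsk 33.8 to 129, while Csf1r and Adgre1 were at most 3.09 and 4.08. Their ranges in control (314 to 446) and with 25(OH)D (266 to 348) overlapped. The part of any of these markers in the results was not tested. In bulk RNA, fewer cells of a kind and less RNA per cell cannot be told apart.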

How the data were processed

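RNA was extracted with TRIzol and libraries were made with the QuantSeq 3′ kit, per the labels' protocols. The authors deposited raw counts per gene symbol and library. STAR 2.7.9a, featureCounts (Subread 2.0.3), DESeq2 1.38.2 and mm39 are named in the submitters' processing notes without their roles. The strand setting, the annotation release and the handling of multi-mapping reads were not stated in the labels.

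Repeated symbols (882 entries) were kept apart. The low-count filter was filterByExpr of edgeR with a minimum count of 10 and a minimum total of 15; the 14394 genes tested hold 99.4% of the counts. A quasi-likelihood model with robust dispersion, TMM scaling and 1 coefficient per group was fitted to all 12 libraries (edgeR 4.0.16, limma 3.58.1, R 4.3.3). P-values were adjusted over all genes tested. An SE was taken as |log2 fold change|/√F, and intervals at 95% are approximate. The Pgd to Ldha log2 ratio used a pseudocount of 0.5. The method was also run on counts simulated without the differences in library ratio seen here. That run does not give the error rate for these libraries. The members and lists were chosen with earlier results of these data known. All 33 members were named, and from each other list up to 4 called genes with the smallest p. Me2, Idh1 and Hif1a were named outside this rule. Same-numbered libraries did not deviate together in every pair, so numbers were not used as pairs. Alternatives were RLE, DESeq2 1.42.0, no filter, a stricter filter (CPM of at least 2 in at least 3 libraries), the library ratio as a covariate, a replicate block, a model of only the 2 groups compared, and leaving out each library. Leaving out 3 libraries, adding copies, the count of groups that do not overlap, and the half-sites AGGTCA and GGTTCA were added after seeing the data. Figures used matplotlib 3.10.9 in Python 3.11.15.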

Additional observations from a re-analysis of the deposited data

How the results depend on the processing

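The number of the 33 genes called with 25(OH)D was 3 without the low-count filter (Hk2 added), without 25(OH)D library 3 (Hk2) or without control library 1 (Pdk4), and 2 under the other alternatives but 1. That 1, the library ratio as a covariate, gave 8 and also moved the count from 1 to 4 for ZK191784 against 25(OH)D and from 2 to 6 for BGP against control. All genes called rose in the same fits from 1250 to 2856, from 508 to 1648 and from 1187 to 2690. In all of these fits Pgd and Ldha were called with 25(OH)D, and Pgd was called for ZK191784 against 25(OH)D. For ZK191784 against control the count was 1 and fell to 0 in the fit on the 2 groups alone. When each library was left out it ran from 0 to 1 in that comparison, from 2 to 3 for 25(OH)D against control, and stayed at 0, 1 and 2 for BGP against 25(OH)D, ZK191784 against 25(OH)D and BGP against control. DESeq2 added Hk1 to the calls of BGP against control, which were then 3. With a replicate block the counts were 2, 0, 1, 1 and 2 in the 5 comparisons, unchanged, while all genes called with 25(OH)D went from 1250 to 953. Same-numbered libraries correlated at −0.74 to −0.07 in their deviations for 25(OH)D against control, −0.64 to 0.24 for BGP and 0.01 to 0.65 for ZK191784 against 25(OH)D, and −0.67 to −0.03 for ZK191784 and −0.37 to 0.59 for BGP against control. In no comparison were all 3 pairs over 0.1, so the numbers were not taken as pairs.

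Genes not called changed sign under some alternatives, in 17 of 495 values (7 genes) for 25(OH)D against control, with sizes up to 0.30 on the log2 scale as reported. The same count was 53 of 494 (20 genes) for BGP and 30 of 495 (10 genes) for ZK191784 against 25(OH)D, and 50 of 495 (18 genes) for ZK191784 and 21 of 495 (10 genes) for BGP against control. Sizes as reported reached 0.48, 0.32, 0.43 and 0.55 in these comparisons, in that order. The Pgd to Ldha ratio and the shares of counts kept their direction and moved by less than the SD between libraries. Depth limits the genes with few counts, such as Pgam1 with 142 counts in all 12 libraries.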
